A study of Mus musculus with 38 samples.

Results

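The response of duodenal villi to the hormone 1,25(OH)2D3 was compared with the response of the colon, gene by gene, as the vitamin D minus vehicle difference in villi minus the same difference in colon. The comparison used 26 of the 38 libraries of the series, 13 from villi and 13 from colon. Of the 21441 genes in the tables, 11821 entered it because they reached 1 FPKM (fragments scaled to transcript length and library size) in at least 6 libraries of villi or of colon. All mice were wild type C57BL6/J, were vitamin D deficient, and were 10 to 13.3 weeks old by their sample labels and 12 to 14 weeks by the treatment text. The 4 groups were vehicle villi (6 libraries), vitamin D villi (7), vehicle colon (6) and vitamin D colon (7). Vitamin D mice received 10 ng of 1,25(OH)2D3 per g of body weight into the peritoneal cavity, vehicle mice received 0.1 ml of propylene glycol with ethanol, and tissue was taken 4 h later. Villi came from the proximal small intestine and were loosened with EDTA and separated from crypts with a 70 µm filter, whereas colon epithelium was scraped from the muscle with glass. The tissues therefore differ in the way their cells were collected as well as in their place along the gut, and these cannot be told apart. The labels call the sex pooled male and female, but by Xist and Ddx3y the libraries fell into single-sex patterns, female in 3 of 6 vehicle and 4 of 7 vitamin D libraries of each tissue. With that pattern as a covariate 60 differences were called, against 39 without it. The labels name no number of mice per library, so the p-values speak only of the spread among these libraries, which may be technical in part.

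1,25(OH)2D3 is the hormonal form of vitamin D. It binds the vitamin D receptor, a nuclear receptor that pairs with the retinoid X receptor on DNA and changes the transcription of nearby genes. In the small intestine the hormone is known for raising the absorption of dietary calcium, through an apical channel, a cytosolic buffer and a basolateral pump, and for inducing the enzyme that degrades the hormone itself. The colon also carries the receptor and absorbs calcium. Asking which genes answer in villi, in colon or in both separates a response common to the epithelium from a response of 1 segment.

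Libraries held 14.2 M to 17.2 M reads in villi and 13.8 M to 16.7 M in colon, as read from the steps between low values. The identity of the tissues fitted their labels: the brush border enzyme gene Sis ranged from 1242 to 2671 FPKM in villi and from 5.59 to 87.5 in colon, and the colonic carbonic anhydrase gene Car1 from 0 to 75.9 in villi and from 3093 to 13397 in colon. Vitamin D colon replicate 2 stood apart in markers of stroma, muscle and vessel (sum over 14 genes 12360 FPKM, beside a median of 198 in vitamin D colon and 99.0 in vehicle colon). In villi the same sum was 3.48 to 11.1 FPKM. Vehicle colon replicate 5 stood apart in enterocyte markers (sum over 22 genes 4223 FPKM, with a vehicle colon median of 882) and in Paneth cell markers (2710 against 454), and vehicle villus replicate 5 in immune cell markers (2064 against 315). In bulk tissue, fewer cells of a type and less RNA per cell cannot be told apart.

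The villus and colon responses differed in 39 of 11821 genes (0.33%) by limma's test of the difference at an adjusted p of 0.05. In 27 of them (0.228% of genes tested) the villus response lay above the colon response, and in 12 (0.102%) below it. Genes were then separated by whether they were present in each tissue (at least 1 FPKM in 6 or more of its 13 libraries), absent (below 1 FPKM in all 13) or sparse (neither). Of the 39 genes, 32 were present in both tissues, 7 were absent in villi and none belonged to the 281 genes present in villi alone. The unadjusted p was under 0.05 in 866 genes. The median difference over all genes tested was -0.01 on the log2 scale. A fit that blocked on replicate numbers within each tissue called 92 genes, and blocked numbers below mean this fit unless stated. Blocking across tissues, which joins same-numbered villus and colon libraries of a treatment, called 22, 18 of them among the 39. With libraries joined by column names it called 29, 21 of them among the 39. Whether both tissues came from the same mice was not tested.

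Among the 9425 genes present in both tissues, 32 differed (0.34%), 26 with the villus response above (0.276%) and 6 below (0.0637%). The 26 genes had villus responses of 0.50 to 2.90 (median 0.90), and colon responses of -0.46 to 0.86 (median -0.05) of which 14 were negative. Of these 26, 24 rose in villi and were not called in colon, and 2 rose in both. The vitamin D villus libraries lay above every vehicle villus library in 24 of the 26, whereas 1.92% of all genes tested in villi had groups that did not overlap. In colon the groups overlapped in 25 of the 26. These genes were chosen by differences among these same libraries, so both counts partly follow from that choice. The counts moved with single libraries. Without vehicle villus replicate 6 limma called 25 genes, 15 with the villus response above, and without vitamin D colon replicate 7 it called 57, of which 23 had the villus response below. Without vehicle replicate 6 and vitamin D replicate 7 of each tissue, 17 lay above and 20 below. Their column names have a number prefix and end in Rep1, and other libraries with a prefix were kept.

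**Figure D1:**
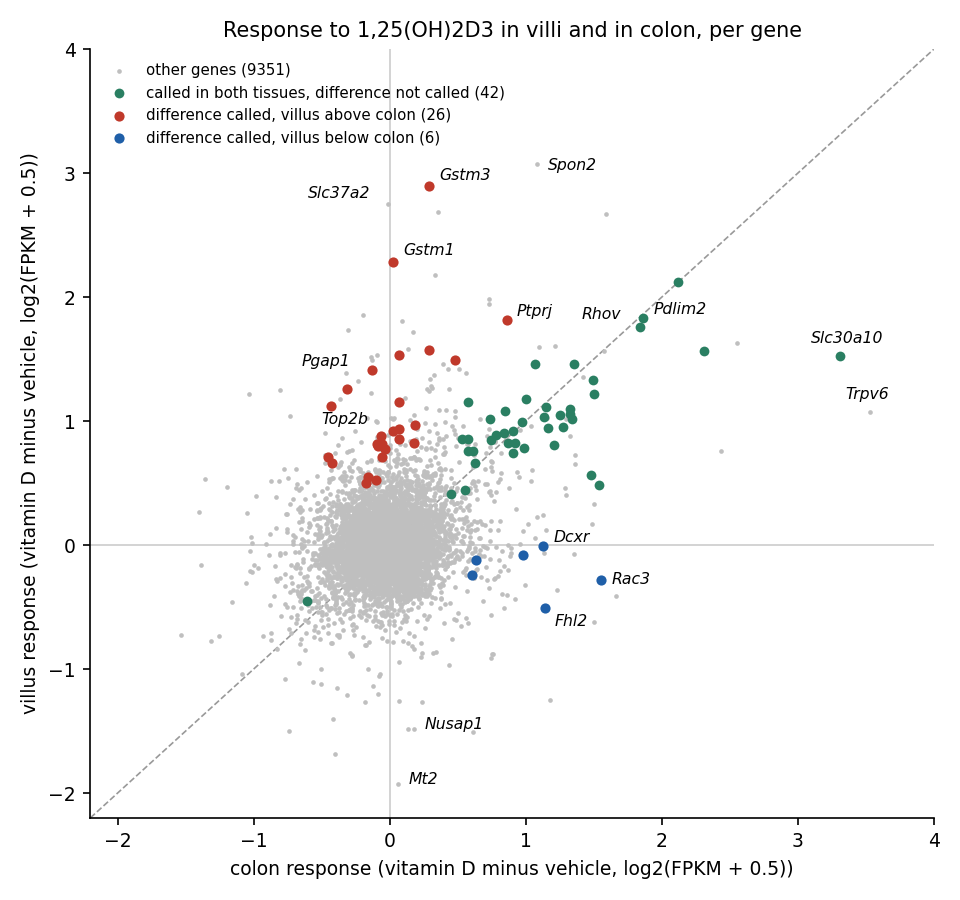
Each point is a gene present in both tissues, placed by its colon response (horizontal axis) and its villus response (vertical axis), both vitamin D minus vehicle on log2(FPKM + 0.5); the dashed line marks equal responses. The 26 red genes rose in villi and have colon responses from -0.46 to 0.86. The 6 blue genes lie to the right, with villus responses from -0.50 to -0.01. The 42 green genes, called in both tissues with no called difference, scatter about the line. Some lie off it, such as Slc30a10 (1.53 in villi, 3.31 in colon). Outside the axes lie 2 genes, 1 of them Cyp24a1.

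Top2b, the topoisomerase that relaxes DNA in cells that no longer divide, had the smallest p among genes above in villi. Its lowest, median and highest values were 9.72, 11.0 and 12.4 FPKM in vehicle villi and 19.3, 21.5 and 24.8 in vitamin D villi, against 17.4, 20.3 and 25.3 in vehicle colon and 19.4, 21.2 and 23.4 in vitamin D colon. The villus groups did not overlap and the colon groups overlapped throughout. Its villus response was 0.92 ± 0.08 (SE, log2 scale), its colon response 0.02 ± 0.09, and the difference 0.90 ± 0.12 (limma adjusted p = 0.000356).

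The zinc finger gene Zfp961 had 9.06, 10.4 and 11.0 FPKM in vehicle villi and 16.6, 19.1 and 22.4 in vitamin D villi, and 7.12, 7.83 and 8.12 in vehicle colon and 7.13, 7.89 and 10.4 in vitamin D colon. The vitamin D villus libraries were all above the vehicle ones, and in colon 2 of 7 were. The difference was 0.79 ± 0.12 (limma adjusted p = 0.00211). Gga3, an adaptor of clathrin coats at the trans-Golgi, went from 5.96 ± 0.311 (SD, n = 6) to 10.1 ± 1.00 FPKM (n = 7) in villi and from 7.88 ± 1.36 to 7.51 ± 0.819 in colon, a difference of 0.77 ± 0.13 (limma adjusted p = 0.00573). Arfgef2, an activator of Golgi ARF GTPases, differed by 0.91 ± 0.16 (limma adjusted p = 0.00837).

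Pgap1, which removes an acyl chain from GPI anchors, had 1.81, 2.19 and 3.96 FPKM in vehicle villi and 5.31, 7.62 and 9.31 in vitamin D villi, with no overlap. In colon it had 3.68, 4.59 and 7.72 with vehicle and 2.84, 4.43 and 6.66 with vitamin D, largely overlapping. The villus response was 1.41 ± 0.17, the colon response -0.13 ± 0.19 and the difference 1.54 ± 0.26 (limma adjusted p = 0.00573). Pip5k1b, a kinase that makes the membrane lipid PI(4,5)P2, had a smaller difference of 0.62 ± 0.12 (limma adjusted p = 0.00961).

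Brpf3, a scaffold of histone acetyltransferase complexes, rose in villi by 0.82 ± 0.07 and stood at 39.6 ± 3.71 and 45.0 ± 4.88 FPKM in vehicle and vitamin D colon, with a difference of 0.64 ± 0.11 (limma adjusted p = 0.00573). Abcb10, a transporter of the inner mitochondrial membrane, rose in villi from 17.2 ± 1.76 to 30.6 ± 5.14 FPKM and stood at 10.1 ± 1.75 and 9.49 ± 1.27 in colon. Tsku, a secreted leucine-rich repeat protein, rose in villi by 1.26 ± 0.20, while its colon response was -0.31 ± 0.19. The difference was 0.89 ± 0.16 for Abcb10 and 1.57 ± 0.29 for Tsku, with a limma adjusted p of 0.00961 for each. With the block across tissues, the called differences of Gga3, Arfgef2, Pgap1, Pip5k1b, Brpf3 and Abcb10 were lost.

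Oxr1, which protects cells against oxidative damage, had 3.63, 6.17 and 7.11 FPKM in vehicle villi and 12.2, 17.3 and 27.7 in vitamin D villi. In colon it had 9.21, 11.3 and 13.2 with vehicle and 10.8, 14.3 and 17.5 with vitamin D, so that 4 of 7 vitamin D libraries lay above all vehicle libraries. The villus response of 1.58 ± 0.20 exceeded the colon response of 0.29 ± 0.12 by 1.29 ± 0.24 (limma adjusted p = 0.0104).

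The largest called differences belonged to a pair of glutathione transferase genes, whose products couple glutathione to foreign and oxidised compounds. Gstm3 had 114, 201 and 296 FPKM in vehicle villi and 672, 1387 and 2600 in vitamin D villi, and 41.8, 57.4 and 285 in vehicle colon and 39.3, 78.6 and 242 in vitamin D colon. Its villus groups were far apart and its colon groups overlapped, with vehicle colon replicate 5, the library high in enterocyte markers, at 285 FPKM. The difference was 2.61 ± 0.57 (limma adjusted p = 0.0402), and 2.28 (adjusted p = 0.0458) without that library and vitamin D colon replicate 2. This call was lost on leaving out any 1 of 16 of the 26 libraries (adjusted p up to 0.0872, without vehicle villus replicate 6).

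Gstm1 had 42.1, 80.1 and 108 FPKM in vehicle villi and 184, 357 and 614 in vitamin D villi, and 129, 264 and 413 in vehicle colon and 146, 288 and 349 in vitamin D colon. Here too the villus groups did not overlap and the colon groups did. The difference was 2.26 ± 0.43 (limma adjusted p = 0.0104). Mu-class transferase genes are near copies, so reads may be split between them in a way that was not checked. Of the 37 genes of glutathione and xenobiotic metabolism tested, these 2 had a called difference, both with the villus response above. Over all genes tested, 0.33% were called. The median difference over the 32 members present in both tissues was 0.09, beside 0.00 over all genes present in both. Gstp1, another transferase, rose in villi (0.76, limma adjusted p = 0.0147) and in colon (0.61, limma adjusted p = 0.0401), and its difference was 0.15.

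Genes of cell adhesion and of magnesium handling each held 1 call, where 0.33% of all genes tested were called. Ppl, the plakin that links keratins to desmosomes, had 0.891, 1.20 and 1.60 FPKM in vehicle villi, 1.78, 2.12 and 2.80 in vitamin D villi, 2.87, 3.09 and 4.05 in vehicle colon and 1.46, 2.30 and 3.56 in vitamin D colon. The villus groups did not overlap, and in colon the vitamin D median was the lower. The villus rise of 0.66 ± 0.13 was lost when replicate numbers were blocked (adjusted p = 0.0611), the colon response was -0.42 ± 0.16 (adjusted p = 0.429), and the difference was 1.09 ± 0.20 (limma adjusted p = 0.00961). Ppl was the single called difference among 26 junction, plakin and keratin genes tested, and was lost with the block across tissues. Cnnm2, a basolateral protein of magnesium transport, rose in villi from 5.14 ± 1.23 to 12.1 ± 3.08 FPKM and stood at 2.15 ± 0.464 and 2.30 ± 0.541 in colon. Its difference of 1.09 ± 0.24 (limma adjusted p = 0.0360) was the single call among 15 phosphate and magnesium genes, and was lost without any 1 of 13 libraries (adjusted p up to 0.0780, without vehicle villus replicate 5).

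Ptprj and 5031439G07Rik rose in both tissues, and more in villi. Ptprj, a receptor tyrosine phosphatase, went from 5.74 ± 0.599 to 21.7 ± 4.17 FPKM in villi and from 23.4 ± 7.33 to 41.9 ± 6.39 in colon. The villus response was 1.82 ± 0.12, the colon response 0.86 ± 0.16 and the difference 0.96 ± 0.21 (limma adjusted p = 0.0334), a call lost without any 1 of 10 libraries (adjusted p up to 0.0666, without vitamin D villus replicate 2). The colon call of Ptprj was lost without either of 2 colon libraries (adjusted p up to 0.0540, without vehicle colon replicate 2). For 5031439G07Rik, whose product is not described here, the 7 vitamin D libraries lay above all vehicle libraries in villi and in colon. Its responses were 1.50 ± 0.12 and 0.48 ± 0.10, and the difference 1.01 ± 0.15 (limma adjusted p = 0.00182). Its colon call was lost without any 1 of 10 colon libraries (adjusted p up to 0.0982, without vehicle colon replicate 1), whereas the difference was not lost on leaving out any library.

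The other genes with the villus response above differed by 0.67 to 1.55. Rybp, a polycomb-associated protein, differed by 1.47, Spns2, an exporter of sphingosine-1-phosphate, by 1.55, Sesn2, a stress-induced sestrin, by 1.17, and Gnpda1, a deaminase of hexosamine breakdown, by 0.94. Neo1, a netrin receptor, and Ahctf1, a nuclear pore protein, each differed by 0.87. Sdc1, a cell surface proteoglycan, differed by 0.81, Micall2 by 0.79, Arhgap42 by 0.71, and Tex2 by 0.67. The vitamin D villus libraries overlapped the vehicle libraries in Sdc1 and Spns2 alone among these. The calls of Rybp, Spns2, Sesn2, Neo1, Sdc1, Micall2, Arhgap42 and Tex2 were each lost on leaving out at least 1 library. The villus rise itself was lost without any 1 of 10 villus libraries for Sesn2 (adjusted p up to 0.106, without vitamin D villus replicate 2), 8 for Spns2 (up to 0.0843) and 7 for Tex2 (up to 0.0728, both without vehicle villus replicate 6).

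**Figure D2:**
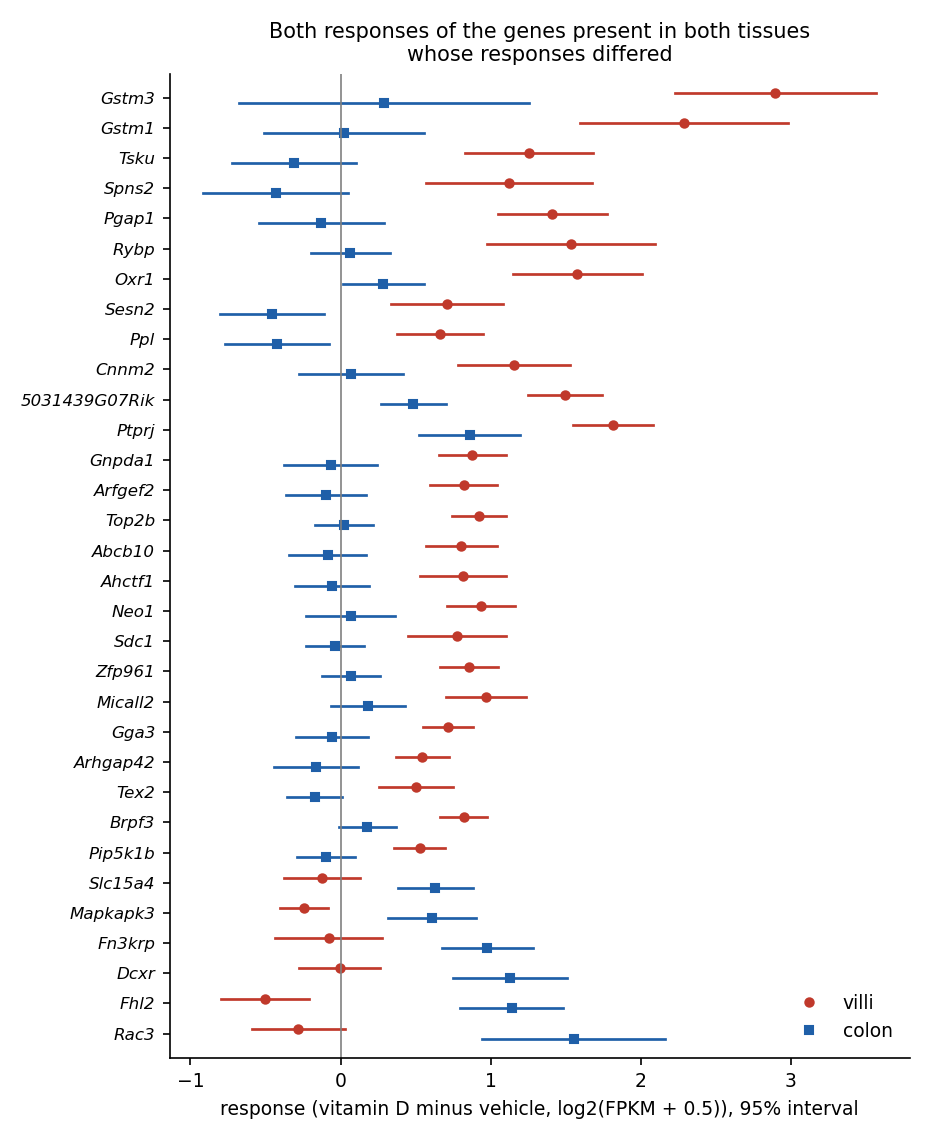
Each row is a gene present in both tissues whose responses differed; the horizontal axis is the response (vitamin D minus vehicle, log2(FPKM + 0.5)), with villi as red circles, colon as blue squares and 95% limma intervals as lines. In the upper 26 rows the villus interval lies above 0 and all but 2 colon intervals lie within 1 of 0; in the lower 6 rows the colon interval lies above 0.

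Of the 6 genes present in both tissues with the villus response below, 5 rose in colon and were not called in villi. Fhl2, a LIM-domain cofactor of transcription, had 9.36, 11.4 and 12.5 FPKM in vehicle colon and 14.9, 26.0 and 34.6 in vitamin D colon, against 12.7, 17.5 and 21.9 in vehicle villi and 9.65, 12.7 and 15.2 in vitamin D villi. The colon groups did not overlap, and in villi the vitamin D libraries lay lower with some overlap. The colon response was 1.14 ± 0.16 (adjusted p = 0.00231), the villus response -0.50 ± 0.14 (adjusted p = 0.0794) and the difference -1.64 ± 0.22 (limma adjusted p = 0.000356). Fhl2 is also a muscle gene. Without vitamin D colon replicate 2, the library high in muscle markers, and vehicle colon replicate 5, the difference was -1.62. The median sum of stroma, muscle and vessel markers was 198 FPKM in vitamin D colon and 99.0 in vehicle colon. The part of muscle cells in the Fhl2 values was not tested.

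Rac3, a small GTPase of the cytoskeleton, had 3.73, 4.44 and 6.96 FPKM in vehicle colon and 7.06, 11.8 and 28.5 in vitamin D colon, with no overlap. In villi it lay near the detection limit used here, at 1.20 ± 0.235 FPKM (SD, n = 6) with vehicle and 0.896 ± 0.219 (n = 7) with vitamin D, which overlapped. The colon response was 1.55 ± 0.28 and the difference -1.83 ± 0.32 (limma adjusted p = 0.00782). Fn3krp, a kinase that repairs sugar-damaged proteins, was likewise near 1 FPKM in villi (1.09 ± 0.287 and 1.00 ± 0.295), and rose in colon from 4.05 ± 0.378 to 8.62 ± 1.95 (difference -1.06 ± 0.21, limma adjusted p = 0.0194).

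Dcxr, a reductase of dicarbonyls and L-xylulose, had 19.3, 20.3 and 29.6 FPKM in vehicle colon and 30.0, 49.0 and 75.4 in vitamin D colon, and 10.3, 15.1 and 16.9 in vehicle villi and 11.4, 13.9 and 18.3 in vitamin D villi. It was well above the detection limit in villi, where the groups overlapped throughout. The villus response was -0.01 ± 0.13, with an interval inside 2-fold, and the difference -1.13 ± 0.22 (limma adjusted p = 0.0163). Slc15a4, a lysosomal transporter of histidine and peptides, rose in colon from 8.25 ± 0.692 to 13.2 ± 2.53 FPKM and differed by -0.75 ± 0.16 (limma adjusted p = 0.0294). That call was lost without any 1 of 6 libraries (adjusted p up to 0.0643, without vehicle villus replicate 6), and when replicate numbers were blocked (adjusted p = 0.0565).

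Mapkapk3, a kinase activated by p38, was called in neither tissue alone. It had 8.46, 8.83 and 10.0 FPKM in vehicle villi and 6.47, 7.46 and 8.50 in vitamin D villi, and 23.5, 26.3 and 35.5 in vehicle colon and 32.9, 40.6 and 60.5 in vitamin D colon. The villus libraries were lower and the colon libraries higher with vitamin D, with a slight overlap in each. The responses were -0.24 ± 0.07 (adjusted p = 0.126) and 0.61 ± 0.14 (adjusted p = 0.0611), and the difference -0.85 ± 0.15 (limma adjusted p = 0.00961).

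**Figure D3:**
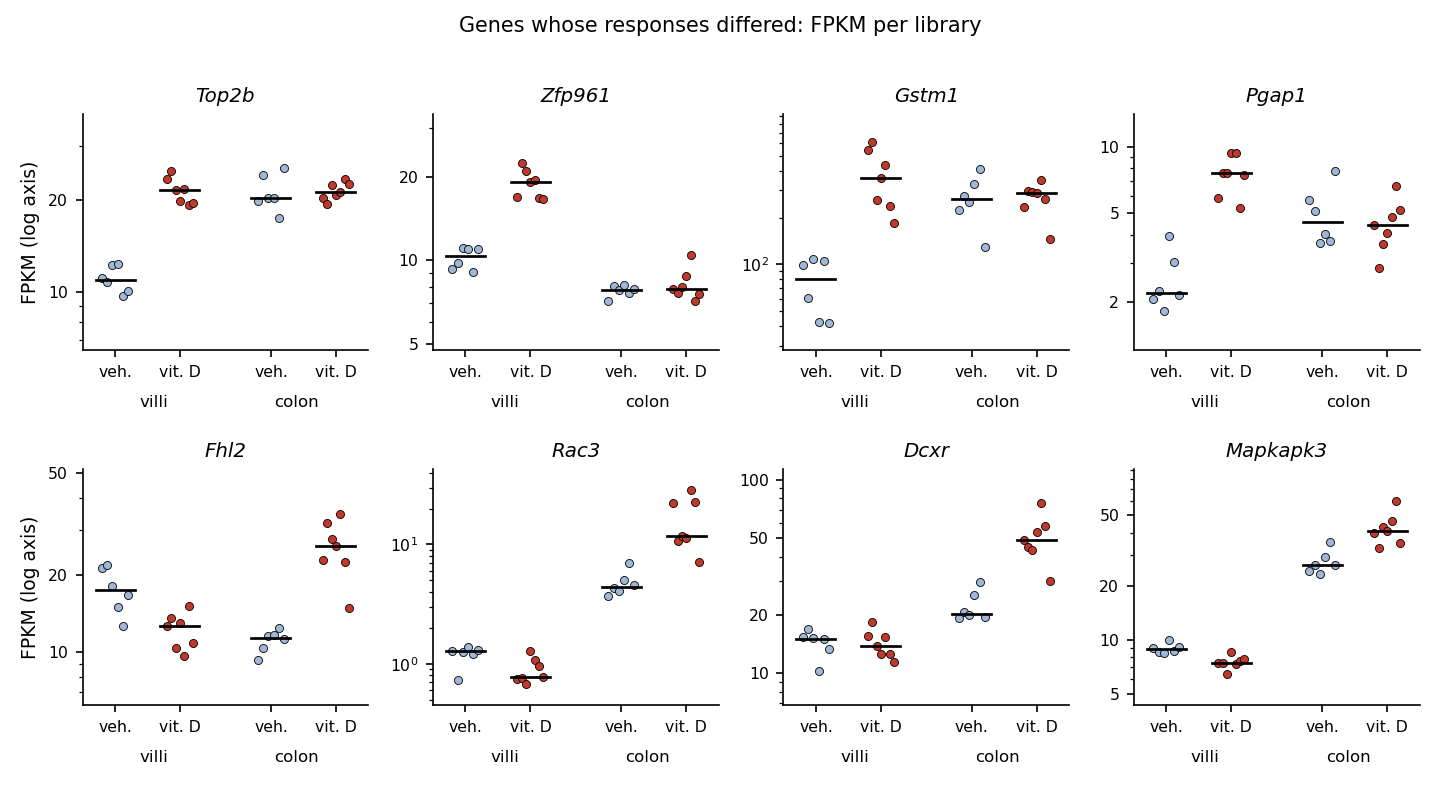
FPKM per library, on log axes, of 4 genes with the villus response above (top row) and 4 with it below (bottom row); points are libraries, bars are group medians, blue is vehicle and red is vitamin D. Top2b, Zfp961, Gstm1 and Pgap1 separate by treatment in villi and not in colon, and Fhl2, Rac3 and Dcxr separate in colon and not in villi.

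A further 7 genes with a called difference responded in colon and were absent in villi. Over the 2115 genes present in colon alone, 0.331% were called. The villus term of these genes is a value near 0 FPKM, so the difference mostly restates the colon response and moves with the pseudocount. With a pseudocount of 0.1 the calls of Ptges (adjusted p = 0.0588), Srgap3 (0.0656), 5033404E19Rik (0.506), Scel (0.0656), Cthrc1 (0.0688) and 2310079G19Rik (0.0904) were lost, and that of A830010M20Rik was not (0.0199). In the authors' deposited tables those of Srgap3 (adjusted p = 0.457), 5033404E19Rik (0.939), Scel (0.738), Cthrc1 (0.895) and 2310079G19Rik (0.921) were not called. Ptges, the inducible synthase of prostaglandin E2, had 0.925, 1.15 and 1.61 FPKM in vehicle colon and 2.08, 4.33 and 8.01 in vitamin D colon, with no overlap, and at most 0.596 in any villus library. Srgap3, an inhibitor of Rac signalling, rose in colon from 2.39 ± 0.387 to 5.81 ± 1.52 FPKM and was at most 0.188 in villi. The colon responses were 1.57 ± 0.25 (limma adjusted p = 0.00530) and 1.11 ± 0.15 (limma adjusted p = 0.00170).

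5033404E19Rik rose in colon from 6.90 ± 3.98 to 34.5 ± 7.48 FPKM and was listed at 0 in all vehicle villus libraries. In villi it reached at most 0.329 FPKM, with 6 of 7 vitamin D libraries above 0, and by the authors' deposited tables its difference turned to 0.72, the villus response being the larger. A830010M20Rik, the gene now named Btbd8, rose in colon from 3.17 ± 0.692 to 8.30 ± 2.90 FPKM. Scel, of the cornified envelope, and Cthrc1, a secreted protein of matrix-forming cells, rose in colon by 1.14 ± 0.23 and 2.16 ± 0.42, with 6 of 7 treated libraries higher than every vehicle library for each. Both differences were lost without vitamin D colon replicate 2 and vehicle colon replicate 5 (adjusted p = 0.0685 and 0.0636), and without any 1 of 15 libraries for Scel (adjusted p up to 0.0648, without vehicle villus replicate 6) and 10 for Cthrc1 (up to 0.0614, without vehicle colon replicate 4). Cthrc1 stood at 3.27 FPKM in vitamin D colon replicate 2, the group median. 2310079G19Rik was the 1 fall among the 7, from 10.6 ± 3.79 to 2.98 ± 2.35 FPKM in colon, and its call was lost without any 1 of 17 libraries (adjusted p up to 0.0807, without vehicle colon replicate 2).

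In all, 17 genes called in colon were absent in villi, 16 of them risen, and 7 of the 17 had a called difference. Cbr2, a carbonyl reductase, was the largest rise among those not called for the difference: it had 8.77, 16.3 and 21.4 FPKM in vehicle colon and 18.9, 90.6 and 174 in vitamin D colon, and at most 0.769 in villi. Its colon response was 2.42 ± 0.42 and its difference -2.13 ± 0.49 (limma adjusted p = 0.0531, and 0.00152 when replicate numbers were blocked). The 17 were 1.3% of the 1299 genes present in colon and absent in villi. Of the genes called in villi, 1 was absent and 5 were sparse in colon, and none of these 6 had a called difference. The pool was smaller there: 1 of 75 genes present in villi and absent in colon was called in villi, also 1.3%.

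Most genes called in 1 tissue were present in the other, as were most genes tested. The 9425 genes present in both tissues were among 9706 tested in villi and 11540 tested in colon. The villus response held 240 called genes of 9706 tested (2.47%), 211 risen (2.17%) and 29 fallen (0.299%), and the colon response 95 of 11540 (0.823%), 88 risen (0.763%) and 7 fallen (0.0607%). When replicate numbers were blocked, which pairs the villus libraries, the villus falls numbered 53. Of the 240 villus genes, 234 were present in colon (2.48% of the genes present in both tissues), where 44 were called and 190 were not. In 159 of those 190, the 95% interval of the colon response lay inside 2-fold in both directions, and in 31 it reached past 2-fold. That is 83.7% of them, below the 92.2% of all genes present in both tissues with such a bounded colon interval. At a bound of 1.5-fold it was 102 of the 190, where 74.2% of all genes present in both tissues were so bounded. Of the 190 genes, 24 had a called difference and 166 did not, so for these 166 a difference between the tissues was not shown.

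Of the 95 colon genes, 76 were present in villi (0.806% of the genes present in both tissues), where 44 were called and 32 were not. The villus interval lay inside 2-fold in 22 of the 32 (68.8%, below the 91.2% of all genes present in both tissues) and reached past it in 10, and 5 of the 32 had a called difference. The 207 villus rises present in colon had a median villus response of 0.80 and a median colon response of 0.27, positive in 166. The 71 colon rises present in villi had a median colon response of 0.99 and a median villus response of 0.83, positive in 65. Each list was chosen by its own tissue's values, so its own median is high by that choice. The authors' deposited tables hold 436 genes in villi and 246 in colon at an adjusted p of 0.05, with 85 in both. By the authors' deposited tables, the 26 differing genes called in villi and the 14 called in colon were also called there.

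**Figure D4:**
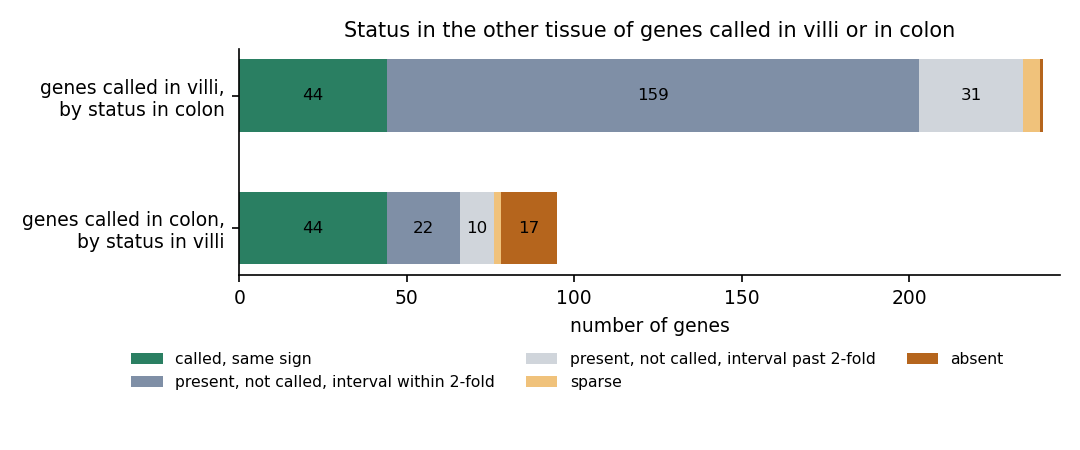
Bars count the genes called in villi (upper bar, 240) and in colon (lower bar, 95), divided by their status in the other tissue; the horizontal axis is the number of genes. The called share (44 genes) is the same set in both bars, absence in the other tissue accounts for 1 villus gene and 17 colon genes, and most villus genes (159) were present in colon with an interval inside 2-fold.

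The 44 genes called in both tissues all moved in the same direction, 43 up and 1 down. They made up 18.3% of the villus calls and 46.3% of the colon calls. Their median response was 1.00 in both tissues, and the villus response was the larger in 20 of the 44. The interval of the difference lay inside 2-fold in 36 of them and reached past it in 8. Pdlim2, a PDZ and LIM protein of the cytoskeleton, had 24.1, 32.1 and 41.4 FPKM in vehicle villi and 71.9, 128 and 193 in vitamin D villi, and 7.19, 17.8 and 25.4 in vehicle colon and 45.6, 55.5 and 82.4 in vitamin D colon. No group overlapped its control, and the responses were 1.83 ± 0.21 and 1.86 ± 0.25, with an interval of the difference from -0.73 to 0.67. Rhov rose by 1.76 ± 0.21 and 1.84 ± 0.21, Ank3, an anchor of membrane proteins to the cytoskeleton, by 1.46 ± 0.22 and 1.36 ± 0.18, and Ttc39b by 1.22 ± 0.16 and 1.50 ± 0.16. Gdpd5, a phosphodiesterase of glycerophosphodiesters, rose by 1.56 ± 0.31 in villi and 2.31 ± 0.33 in colon. The transcription factor gene Sox13 was the shared fall, from 20.1 ± 2.10 to 14.6 ± 2.11 FPKM in villi and from 29.0 ± 2.50 to 19.0 ± 2.78 in colon. Its villus call did not survive blocking on replicate number (adjusted p = 0.0660), nor leaving out any 1 of 5 villus libraries (up to 0.0586, without vehicle villus replicate 1). Among the 43 shared rises, vehicle colon replicate 6 was the highest vehicle colon library in 25 and vitamin D colon replicate 7 the lowest vitamin D colon library in 22.

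Cyp24a1, the hydroxylase that degrades 1,25(OH)2D3, was the largest rise of both tissues. It had 0.0548, 0.977 and 62.2 FPKM in vehicle villi and 1898, 3493 and 4651 in vitamin D villi, and 0.114, 2.87 and 64.7 in vehicle colon and 403, 2893 and 3275 in vitamin D colon. The groups were far apart in both tissues, vehicle replicate 6 was the highest vehicle library of each, and vitamin D colon replicate 7 stood below the other vitamin D libraries. The difference was 1.42, with a 95% interval from -1.21 to 4.05 (limma adjusted p = 0.790), so neither an equal nor a several-fold unequal response was resolved. Vdr, the receptor gene, stood at 138 ± 32.1 and 161 ± 35.9 FPKM in villi and at 179 ± 32.0 and 166 ± 29.7 in colon, with a difference of 0.33 ± 0.24 (limma adjusted p = 0.754). Cyp27b1, whose product makes 1,25(OH)2D3, was too low to be tested in either tissue.

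The genes of calcium absorption held no called difference among the 6 tested (0.33% over all genes tested), though their values were uneven. Atp2b1, the basolateral calcium pump, had 39.7, 41.9 and 48.1 FPKM in vehicle villi and 88.6, 104 and 147 in vitamin D villi, and 43.5, 46.8 and 86.2 in vehicle colon and 121, 152 and 178 in vitamin D colon. It rose without overlap in both tissues, by 1.33 ± 0.12 and 1.50 ± 0.16, and the interval of the difference ran from -0.59 to 0.26. S100g, the cytosolic calcium buffer calbindin-D9k, responded by 1.36 ± 0.27 in villi (adjusted p = 0.0141, and 0.0726 when replicate numbers were blocked) and by 1.42 ± 0.37 in colon (adjusted p = 0.131). Its difference was -0.07 ± 0.48, with an interval from -1.06 to 0.93.

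Trpv6, the apical calcium channel, had 0.227, 0.327 and 1.64 FPKM in vehicle villi and 0.206, 1.87 and 3.79 in vitamin D villi, and 0.427, 1.54 and 5.29 in vehicle colon and 12.5, 21.7 and 53.2 in vitamin D colon. The colon groups did not overlap, and in villi 5 of 7 vitamin D libraries lay above all vehicle libraries, with vitamin D villus replicate 6 the lowest. The colon rise was 3.53 ± 0.46 (adjusted p = 0.00142) and the villus response 1.08 ± 0.37 (adjusted p = 0.200, and 0.0259 without that library). The difference of -2.46 ± 0.62 did not pass (limma adjusted p = 0.0855). It passed without vehicle colon replicate 2 (adjusted p = 0.0468), with a pseudocount of 1 and with all 38 libraries in the fit. It did not with a pseudocount of 0.1 (-2.36, adjusted p = 0.418) or in the authors' deposited tables (-1.98, adjusted p = 0.408). The vehicle villus median lay below the pseudocount of 0.5 FPKM, so the difference moves with it.

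The claudins, which set the ion selectivity of tight junctions, had no called difference in the main fit. Cldn2, a paracellular cation pore, rose in villi by 1.99 ± 0.37 and had a colon response of 0.73 ± 0.38 (adjusted p = 0.695), with a difference of 1.26 ± 0.56 (limma adjusted p = 0.660). Cldn15, another cation pore, stood at 599 ± 70.1 and 574 ± 67.2 FPKM in villi and at 123 ± 24.7 and 237 ± 78.3 in colon. In colon 6 of 7 vitamin D libraries lay above all vehicle libraries, and the difference was -0.96 ± 0.23 (limma adjusted p = 0.0665). When replicate numbers were blocked, the Cldn15 difference was called (-1.08, adjusted p = 0.00152).

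**Figure D5:**
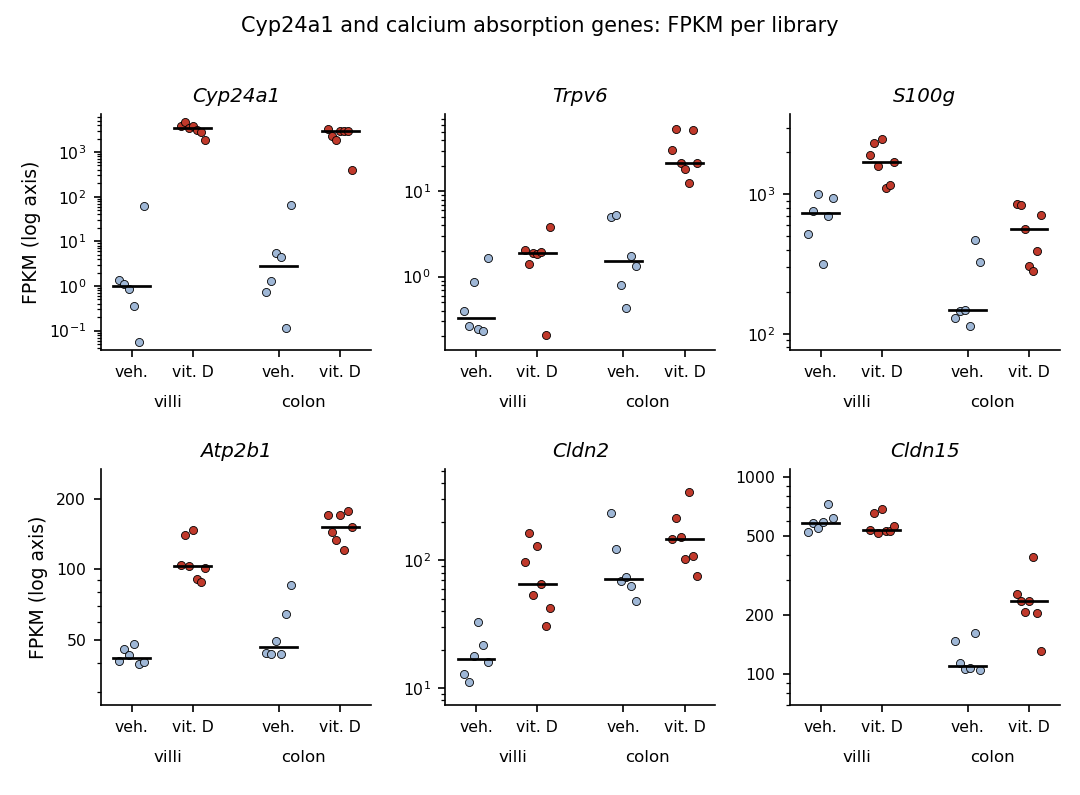
FPKM per library on log axes for Cyp24a1 and 5 calcium absorption genes; points are libraries, bars are group medians, blue is vehicle and red is vitamin D. Cyp24a1 and Atp2b1 separate by treatment in both tissues, Trpv6 separates in colon, and S100g separates in villi.

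Genes of zinc, manganese, iron and copper handling had no called difference among 29 tested. At the 0.33% called over all genes tested, a list of this length would mostly hold none. Slc30a1, a zinc exporter of the plasma membrane, had 6.00, 6.94 and 8.70 FPKM in vehicle villi and 13.1, 19.2 and 30.5 in vitamin D villi, and 8.64, 10.5 and 15.9 in vehicle colon and 10.9, 15.3 and 17.4 in vitamin D colon. It rose in villi without overlap, and its difference of 1.05 ± 0.24 missed the threshold narrowly (limma adjusted p = 0.0503), and passed when replicate numbers were blocked (adjusted p = 0.0228). Slc30a10, the manganese exporter, rose in both tissues, by 1.53 ± 0.18 in villi and 3.31 ± 0.48 in colon, with a difference of -1.79 ± 0.54 (limma adjusted p = 0.244). The metallothionein gene Mt2 fell in villi by 1.93 ± 0.43 and had a colon response of 0.06 ± 0.61, and its difference of -1.99 ± 0.78 did not pass (limma adjusted p = 0.576). The villus fall of Mt2 was lost without any 1 of 5 villus libraries (adjusted p up to 0.0626, without vehicle villus replicate 1).

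Other large villus rises had no called difference in the main fit, which held no block. Slc37a2, a sugar-phosphate carrier, rose in villi by 2.75 ± 0.23 and had a colon response of -0.02 ± 0.62, with colon values from 12.0 to 120 FPKM under vehicle and from 15.1 to 157 under vitamin D (difference 2.76 ± 0.70, limma adjusted p = 0.0855). Spon2, a matrix protein, responded by 3.08 ± 0.32 and 1.08 ± 0.37 (difference 1.99 ± 0.51, limma adjusted p = 0.0953). Pkp1, a desmosomal plaque protein, responded by 1.80 ± 0.37 and 0.09 ± 0.17, and Hopx, a homeodomain-only cofactor, by 1.03 ± 0.17 and 0.01 ± 0.16. Their limma adjusted p-values for the difference were 0.0787 and 0.0665, and that of Hopx was 0.00300 when replicate numbers were blocked. Shmt1, of one-carbon metabolism, responded by 1.94 ± 0.29 and 0.73 ± 0.24 (difference 1.21 ± 0.40, limma adjusted p = 0.348). By the authors' deposited tables the differences of Spon2 (4.10, adjusted p = 4.9e-05), Slc37a2 (2.62, 0.0227) and Hopx (1.01, 0.0159) were called. Those of Pkp1 (0.195) and Shmt1 (0.343) were not. With replicate numbers blocked within tissue, Spon2 (adjusted p = 0.108), Slc37a2 (0.0782) and Pkp1 (0.114) were not called. The block across tissues called the Spon2 difference and not those of Slc37a2 and Pkp1. Spon2 was also called with a pseudocount of 0.1 (3.35, limma adjusted p = 0.0103).

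Lists of other functions and cell types held no called difference in the main fit, where 0.33% of all genes tested were called. Several lists leaned to 1 side among genes present in both tissues, where the median difference of all genes was 0.00. Positive differences were held by 12 of 12 circadian clock genes (median 0.30) and 12 of 13 cholesterol synthesis genes (0.33). Of 19 cell cycle genes present in both tissues, 1 had a positive difference and the median difference was -0.47. Their villus median was -0.25 and their colon median 0.14. The spindle gene Nusap1 was the 1 called member, with a villus fall of 1.48 ± 0.33 (adjusted p = 0.0285) and a colon response of 0.18 ± 0.21, and its difference was -1.66 ± 0.41 (limma adjusted p = 0.0787, and 0.00399 when replicate numbers were blocked). That villus call was lost without any 1 of 7 villus libraries (adjusted p up to 0.0671, without vehicle villus replicate 1). By the authors' deposited tables the Nusap1 difference was called (-1.88, adjusted p = 0.0100). The summed stem cell markers were 76.7 to 133 FPKM in vehicle villi and 113 to 179 in vitamin D villi, and 281 to 353 and 243 to 307 in colon. Hopx alone went from 49.6 ± 10.7 to 102 ± 25.2 FPKM in villi and made up most of that gap, Lgr5 was below 1 FPKM in all villus libraries, and the median villus response of the list was 0.13. Their part in the cell cycle values was not tested. Enterocyte markers (22 tested), colonocyte markers (13), goblet (11), enteroendocrine (14) and Paneth cell markers (10) had no called difference, with medians among members present in both tissues of 0.34, 0.06, -0.04, -0.01 and -0.06.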

How the data were processed

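RNA-seq libraries of duodenal villi and colon epithelium were used as FPKM values, which the authors deposited in 1 table per tissue. The submitters' processing notes name kallisto 0.45.0, DESeq 1.28.1, DESeq2 and the mm9 genome without saying which produced which values. The authors also deposited tables of vitamin D against vehicle per tissue, with log2 fold changes and their errors, a score (the fold change over its error), p-values and a mean normalised signal per gene, used only as an alternative.

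FPKM was taken as log2(FPKM + 0.5), which understates changes of low genes. Genes with 1 FPKM or more in at least 6 libraries of either tissue were fitted with limma 3.58.1 in R 4.3.3 (4 group means, trended prior), and the difference of the responses was tested with Benjamini-Hochberg adjustment at 0.05. The responses were fitted in each tissue alone. The tables were treated as normalised separately, so levels were not tested across them. The method was tested on simulated data. Reads per library were inferred from the whole-number steps of low values (84.0% to 94.5% of values whole within 0.05), and the precision they give covers counting error only. No pair of libraries within a group agreed within sampling noise (72 pairs).

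Same-numbered vehicle and vitamin D libraries deviated together in villi (6 of 6 pairs with a correlation over 0.1, from 0.10 to 0.43). In colon 4 of 6 pairs did (-0.04 to 0.58). In each tissue 5 of 6 pairs shared the sex pattern. Numbers were therefore taken to pair the villus libraries, which comes from the data and not from the labels. The main fit used no pairing, and the block within tissue was applied to colon as well, where pairing is less certain. Villus and colon libraries matched by column names shared the sex pattern in 12 of 12 pairs, 7 of them with a correlation over 0.1. Genes named were fixed vitamin D and calcium genes, the called differences of smallest p, the largest changes per tissue, the largest shared changes and up to 3 members of each of 28 lists (435 genes, 424 matched by symbol, 6 by synonym and 5 not matched). The genes with Riken names, and Rybp, Sesn2, Sdc1, Spns2, Neo1, Gnpda1, Ahctf1, Tex2, Micall2, Arhgap42 and Gstp1, were named after their values were seen. Members and lists were chosen with earlier results of these data known. Alternatives covered pseudocounts, filters, blocks, covariates, the authors' tables and libraries left out. Leaving out vitamin D colon replicate 2 with vehicle colon replicate 5 was chosen after seeing the data. So was leaving out the 4 libraries whose names have a number prefix and end in Rep1.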

Additional observations from a re-analysis of the deposited data

Results flagged for a closer look

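A library stood apart from its group in 18 of 246 groups of named genes, where chance flags about 1 in 20. In vehicle villi these were 2310079G19Rik (replicate 3, 0.0848 FPKM), Cyp24a1 (replicate 6, 62.2), Ptprj (replicate 3, 4.60), Rac3 (replicate 2, 0.731) and Srgap3 (replicate 3, 0.156). In vitamin D villi they were 2310079G19Rik (replicate 5, 0.0926), Ahctf1 (replicate 4, 5.35) and Slc37a2 (replicate 5, 63.6). In vehicle colon they were Arhgap42 (replicate 6, 13.9), Gstm3 (replicate 5, 285), Scel (replicate 2, 2.43), Sesn2 (replicate 1, 13.9), Ttc39b (replicate 6, 19.2) and Vdr (replicate 1, 118). In vitamin D colon they were Cbr2 (replicate 7, 18.9), Cyp24a1 (replicate 7, 403), Gdpd5 (replicate 7, 2.91) and Mt2 (replicate 2, 1838).

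The villus response exceeded the colon response, by limma's test of the difference on the log2 scale, in Gstm3 (2.61), Gstm1 (2.26), 2310079G19Rik (1.87), Tsku (1.57), Spns2 (1.55), Pgap1 (1.54), Rybp (1.47), Oxr1 (1.29), Sesn2 (1.17), Ppl (1.09), Cnnm2 (1.09), 5031439G07Rik (1.01), Ptprj (0.96), Gnpda1 (0.94), Arfgef2 (0.91), Top2b (0.90), Abcb10 (0.89), Ahctf1 (0.87), Neo1 (0.87), Sdc1 (0.81), Zfp961 (0.79), Micall2 (0.79), Gga3 (0.77), Arhgap42 (0.71), Tex2 (0.67), Brpf3 (0.64) and Pip5k1b (0.62). It lay below in Cthrc1 (-2.10), 5033404E19Rik (-1.95), Rac3 (-1.83), Fhl2 (-1.64), Ptges (-1.45), A830010M20Rik (-1.26), Scel (-1.17), Dcxr (-1.13), Fn3krp (-1.06), Srgap3 (-1.04), Mapkapk3 (-0.85) and Slc15a4 (-0.75).

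In crypt libraries, 9 of the 26 genes present in both tissues with the villus response above were called by limma, beside 157 of 10733 crypt genes. These libraries entered the comparison above only in the alternative fit of all 38 libraries.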

How the results depend on the processing

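The 39 called differences kept their direction in each alternative run, except 5033404E19Rik in the authors' deposited tables (0.72). 7 of them were called in each alternative (5031439G07Rik, Fhl2, Gstm1, Mapkapk3, Rac3, Top2b and Zfp961), and 24 on leaving out any 1 of the 26 libraries. Genes with the villus response below numbered 6 with a pseudocount of 0.1, 19 with 1, 6 with the filter in both tables, and 19 with all 38 libraries in the fit. The authors' deposited tables gave 78 differences (62 above, 71 present in both tissues), 436 villus calls (350 higher, 86 lower) and 246 colon calls (205 higher, 41 lower). The replicate block within tissue gave 92 (60 above, 32 below, 75 present in both), with 53 villus falls and 147 colon calls, 27 of them lower. The block across tissues gave 22 (12 above, 17 present in both), 18 of them among the 39. With tissues matched by column names instead, that block gave 29 (19 above), 21 of them among the 39. Column name style as a covariate gave 68 (49 above, 19 below, 61 present in both), and the sex pattern 60 (42 above). The plainly named libraries alone gave 23 (9 above, 16 present in both) and 97 villus calls (93 higher, 4 lower). Without the 4 libraries whose names have a number prefix and end in Rep1, 17 lay above, 20 below, and 11 genes fell in villi. Without vitamin D colon replicate 2 and vehicle colon replicate 5, 4 fell in colon. On leaving out 1 library the differences numbered 25 to 57 (15 to 36 above, 9 to 23 below, 21 to 42 present in both), villus falls 15 to 28 and colon falls 1 to 20. The S100g difference was 0.0079 with the replicate block within tissue and -0.32 to 0.0811 on leaving out 1 library, and the Vdr colon response was 0.0255 without vitamin D colon replicate 2 and vehicle colon replicate 5. The causes were not tested. FPKM near 1 rests on few reads, so absence in a tissue means below this limit.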

Other observations

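The series also holds crypts from the same part of the bowel (6 vehicle and 6 vitamin D libraries), in which limma called 157 of 10733 genes. Of the 26 genes present in villi and colon with the villus response above, 25 had a positive crypt response, with a median of 0.45 on the log2 scale, and 9 were called. Of the 6 with the villus response below, none was called in crypts. Of the 7 genes absent in villi with a called difference, only 5033404E19Rik was tested in crypts. It rose there by 2.12 ± 0.19 (limma adjusted p = 6.4e-05). The crypt response was not tested against the villus or colon response.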
